A study of Homo sapiens with 6 samples.

Results

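The IFIT family (IFIT1, IFIT2, IFIT3 and IFIT5) and the IFITM family (IFITM1, IFITM2 and IFITM3) were examined in BT-549 cells with and without silencing of PBRM1, the bromodomain subunit that targets the SWI/SNF PBAF chromatin remodeling complex. The 7 genes were taken by symbol from 37887 rows of a raw count table, and all 7 passed the filter on low counts. BT-549 is an established human triple-negative breast cancer (TNBC) cell line. The submitters' design text describes cells that stably carried a tet-PBRM1 shRNA vector, selected as a transduced population. RNA-seq was performed on 3 control libraries (shCTL) and 3 silenced libraries (shPBRM1). By title, the libraries hold a control shRNA or an shPBRM1, whereas the treatment labels give 0.1% DMSO, the vehicle, for the 3 shCTL libraries and 500 ng/ml doxycycline (DOX), which turns on the tet vector, for the 3 shPBRM1 libraries. DOX exposure and PBRM1 silencing therefore cannot be told apart here. If the titles hold, the groups also carry different vectors, which cannot be told apart from silencing either. The cultures were grown in triplicate, but whether the 3 libraries of a group came from separate experiments is not stated for the RNA-seq, and the p-values measure the spread between these libraries.

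Both families are classical IFN-stimulated genes. IFN receptors signal through the JAK kinases to STAT2 and IRF9, which bind the IFN-stimulated response element (ISRE) in the promoters of such genes, and IRF1 binds similar sites. IFIT proteins are cytoplasmic tetratricopeptide repeat proteins that bind viral RNA, in particular RNA whose cap lacks 2′-O-methylation, and block its translation. IFITM proteins are small membrane proteins that restrict the entry of enveloped viruses, with IFITM1 mainly at the plasma membrane and IFITM2 and IFITM3 in endosomes.

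In the GENCODE v29 annotation of GRCh38, the IFIT genes lie side by side on the plus strand of chromosome 10, IFIT2 from 89283694 to 89309276, IFIT3 from 89327894 to 89340971, IFIT1 from 89392546 to 89406486 and IFIT5 from 89414586 to 89421001. LIPA on the minus strand spans IFIT2, IFIT3 and IFIT1. The IFITM genes lie on chromosome 11, with IFITM2 from 307631 to 315272 and IFITM1 from 313506 to 315272 on the plus strand and IFITM3 from 319669 to 327537 on the minus strand. IFITM1 lies within the annotated bounds of IFITM2 on the same strand, and 3 genes on the opposite strand overlap IFITM3. On the same strand, AC136475.8 and AC136475.7 overlap IFITM3, and AL353751.1 overlaps IFIT2. The libraries were made with a stranded kit, but the strand setting of the counting is not given in the sources used here.

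The promoters are shown so that the members with a sequence at hand can be compared by their ISRE sequences. RefSeq promoter windows (GRCh38.p14, 250 bases before to 50 after the transcript start) were at hand for 5 members, and IFIT3 has 2 such starts, which gives 6 windows. IFIT2 and IFITM2 had no entry. Each sequence below runs from 200 bases before the start to 20 bases after it, 5′ to 3′ on the strand of the gene. Capitals mark matches to the ISRE core, taken as GAAA, any 2 bases and GAAA again, which reads TTTC, 2 bases and TTTC where it lies on the other strand. The first of the starts is shown for IFIT3.
IFIT1 (chr10:89392423-89392642, plus strand): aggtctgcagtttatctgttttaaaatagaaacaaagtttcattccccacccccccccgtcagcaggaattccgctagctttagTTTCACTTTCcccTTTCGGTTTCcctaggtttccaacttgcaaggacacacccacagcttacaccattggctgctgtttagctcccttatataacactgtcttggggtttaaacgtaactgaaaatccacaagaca
IFIT3 (chr10:89327797-89328016, plus strand): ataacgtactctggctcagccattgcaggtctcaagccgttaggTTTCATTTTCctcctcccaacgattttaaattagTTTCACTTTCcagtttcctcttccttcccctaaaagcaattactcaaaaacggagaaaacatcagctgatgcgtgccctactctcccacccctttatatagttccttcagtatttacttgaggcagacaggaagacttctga
IFIT5 (chr10:89414368-89414587, plus strand): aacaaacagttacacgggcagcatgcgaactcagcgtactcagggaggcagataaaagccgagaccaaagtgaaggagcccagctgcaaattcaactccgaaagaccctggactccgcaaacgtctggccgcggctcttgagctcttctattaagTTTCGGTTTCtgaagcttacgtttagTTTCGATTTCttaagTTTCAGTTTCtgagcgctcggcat
IFITM1 (chr11:313840-314059, plus strand): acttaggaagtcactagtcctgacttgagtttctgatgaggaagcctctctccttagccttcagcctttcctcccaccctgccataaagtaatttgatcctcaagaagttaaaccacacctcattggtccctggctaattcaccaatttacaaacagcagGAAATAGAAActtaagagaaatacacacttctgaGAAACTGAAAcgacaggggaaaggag
IFITM3 (chr11:320841-321060, minus strand): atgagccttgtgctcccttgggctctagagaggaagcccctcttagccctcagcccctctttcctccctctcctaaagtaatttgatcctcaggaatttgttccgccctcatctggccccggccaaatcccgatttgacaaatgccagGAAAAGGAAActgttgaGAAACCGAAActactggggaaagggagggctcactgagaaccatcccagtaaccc

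All 6 windows held at least 2 matches, counted on both strands, whereas 3.57% of 35116 RefSeq windows held at least 1 and 0.259% held at least 2. In IFIT1 the matches lay at bases -116 to -107 and -103 to -94 from the start. In IFIT3 they lay at -156 to -147 and -122 to -113, and at the other start at -94 to -85 and -51 to -42. IFIT5 was the member with 3 matches, the last of which spans the start from -4 to 6. In the IFITM promoters the matches lay on the strand of the gene, at -40 to -31 and -6 to 4 in IFITM1 and at -52 to -43 and -35 to -26 in IFITM3. The GAS motif (gamma-activated site), taken as TTC, any 3 bases and GAA and held by 7.66% of all windows, was found at 1 place, in IFITM1 at -12 to -4, where it overlaps the second ISRE match. A match is a description of the letters and does not show that a factor is bound there.

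**Figure D1:**
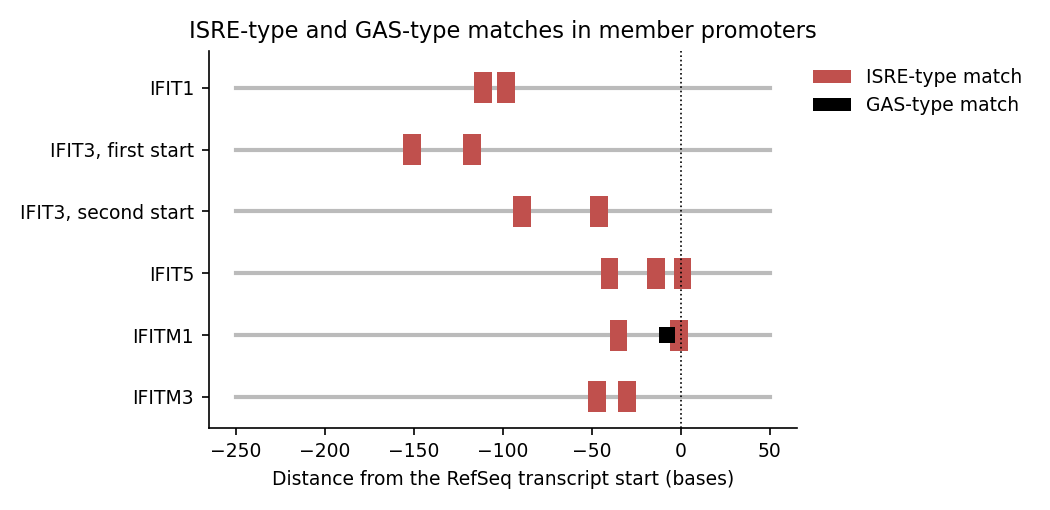
Map of the promoter windows of 5 members, with the distance in bases from the RefSeq transcript start on the x axis and 1 row for each window. Red boxes are matches to the ISRE core on either strand and the black box is the GAS-type match, and each row holds 2 or 3 red boxes.

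The libraries held between 36429395 and 65096297 counts. The silenced gene, PBRM1, had a level of 158 ± 2.30 CPM in shCTL, where CPM are read counts scaled to the library size with TMM factors (SD, n = 3). With silencing it fell to 41.9 ± 1.22 CPM (SD, n = 3), for a log2 fold change of -1.91 (edgeR quasi-likelihood adjusted p = 9.98e-23). Of the marker genes of a mesenchymal TNBC line, VIM, FN1 and CDH2 had at least 8084 counts in every library, ESR1 had at most 2 counts and PGR at most 12. CDH1 had between 186 and 271 counts in shCTL and between 58 and 110 in shPBRM1. Of these markers, FN1 (log2 fold change -1.33) and CDH1 (-1.73) fell in shPBRM1 cells, and VIM (0.31) and CDH2 (0.54) stayed under a 2-fold change. Among markers of other cell types, CD3E had no counts, CD68 and PECAM1 had at most 18, and PTPRC had between 26 and 44 counts in shCTL and between 4 and 12 in shPBRM1. Whether cells of another type had a part in the results was not tested.

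All 4 IFIT genes fell in shPBRM1 cells to a few percent of their control levels. A gene was called where its adjusted p was under 0.05 and it changed more than 2-fold, and 4 of 4 IFIT and 2 of 3 IFITM genes were called lower, where 9.68% of the 15450 tested genes were. The median of the log2 fold changes was -5.91 over the 4 IFIT genes and -2.13 over the 3 IFITM genes, against -0.0080 over all tested genes. Fewer transcripts per cell and fewer cells with the transcripts cannot be told apart in bulk libraries.

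IFIT1, which binds the cap of viral mRNA, was counted 12036, 16318 and 17495 times in shCTL replicates 1 to 3 and 295, 166 and 296 times in shPBRM1 replicates 1 to 3. In CPM, the levels were 322, 336 and 347 in shCTL and 4.91, 4.26 and 4.64 in shPBRM1. Every shPBRM1 library was below every shCTL library, as for 35.0% of all tested genes, and 1.38% of the control level was left. IFIT1 thus had a log2 fold change of -6.17 (SE, the standard error between replicates, 0.066, edgeR quasi-likelihood adjusted p = 7.80e-29).

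IFIT3, which forms a complex with IFIT1 and stabilizes it, had the largest decrease of the 7 genes. Its counts were 17085, 22350 and 24382 in shCTL and 283, 143 and 331 in shPBRM1. The levels were 458, 459.6 and 483 CPM in shCTL and 4.71, 3.67 and 5.19 CPM in shPBRM1, so that 0.970% was left. The groups were far apart, with a fitted log2 fold change of -6.66 (SE 0.15, edgeR quasi-likelihood adjusted p = 3.59e-27).

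IFIT2, which pairs with IFIT1 and IFIT3 and has been linked to apoptosis, had counts of 11786, 15099 and 16127 in shCTL and of 382, 200 and 456 in shPBRM1. Its levels were 316, 310.5 and 319.6 CPM in shCTL and 6.36, 5.14 and 7.15 CPM in shPBRM1. The groups did not overlap, as for 35.0% of all tested genes in this direction. With 1.97% left, the fitted log2 fold change was -5.64 (SE 0.14, edgeR quasi-likelihood adjusted p = 1.35e-26).

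IFIT5, a member that acts as a monomer and binds RNA with a 5′-triphosphate, had the smallest decrease of its family. It had 7749, 9954 and 10504 counts in shCTL and 466, 228 and 451 counts in shPBRM1. The levels of 208, 205 and 208 CPM in shCTL and of 7.76, 5.86 and 7.07 CPM in shPBRM1 leave 3.33% of the control level. The estimated log2 fold change was -4.88 (SE 0.12, edgeR quasi-likelihood adjusted p = 1.01e-26). In each IFIT gene, shPBRM1 replicate 2 was the lowest of its group.

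The IFITM genes, in contrast, had decreases of unlike size. IFITM1 had 18845, 25790 and 25746 counts in shCTL and 613, 389 and 606 counts in shPBRM1. Its levels were 505, 530.3 and 510.3 CPM in shCTL and 10.2, 9.99 and 9.50 CPM in shPBRM1. With 1.92% left, IFITM1 lay among the IFIT genes, with an estimated log2 fold change of -5.70 (SE 0.037, edgeR quasi-likelihood adjusted p = 7.80e-29).

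IFITM3, the member that restricts influenza virus in endosomes, kept more than any other member. It had 28377, 39728 and 39450 counts in shCTL and 24624, 17969 and 26968 counts in shPBRM1. The levels were 759.9, 817 and 782 CPM in shCTL and 410.0, 462 and 423 CPM in shPBRM1. The groups did not overlap, as for 35.0% of all tested genes in this direction, and 54.9% of the control level was left. The estimated log2 fold change was -0.87 (SE 0.059, edgeR quasi-likelihood adjusted p = 6.17e-14), which passed the adjusted p, as 33.2% of all tested genes did in this direction, but not the fold change minimum. In the pairs of libraries with the same replicate number, 54.0%, 56.5% and 54.1% of IFITM3 were left, against 2.02%, 1.88% and 1.86% of IFITM1.

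IFITM2 was counted far less often than its relatives, with 219, 255 and 258 counts in shCTL and 87, 50 and 63 counts in shPBRM1. The levels were 5.86, 5.24 and 5.11 CPM in shCTL and 1.45, 1.28 and 0.988 CPM in shPBRM1. The estimated log2 fold change was -2.13 (SE 0.17, edgeR quasi-likelihood adjusted p = 2.40e-11), and 22.9% of the control level was left. The IFITM transcripts share stretches of sequence. Of the windows of 50 bases in the GENCODE v29 principal transcripts, 42.3% of those in IFITM1, 15.8% in IFITM2 and 20.3% in IFITM3 occur in a transcript of another gene. For IFITM1, 39.0% of the windows are also found in annotated IFITM2 transcripts. With windows of 100 bases the shares were 37.7% for IFITM1, 0% for IFITM2 and 5.92% for IFITM3. How the counting treated such reads is not given in the sources used here. With IFITM2 and IFITM3 added together, an alternative chosen after seeing the data, the log2 fold change was -0.87 and IFITM1 was the single member called. In the IFIT family the shares at 50 bases were 2.08% for IFIT1, 8.87% for IFIT2, 3.84% for IFIT3 and 0% for IFIT5.

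**Figure D2:**
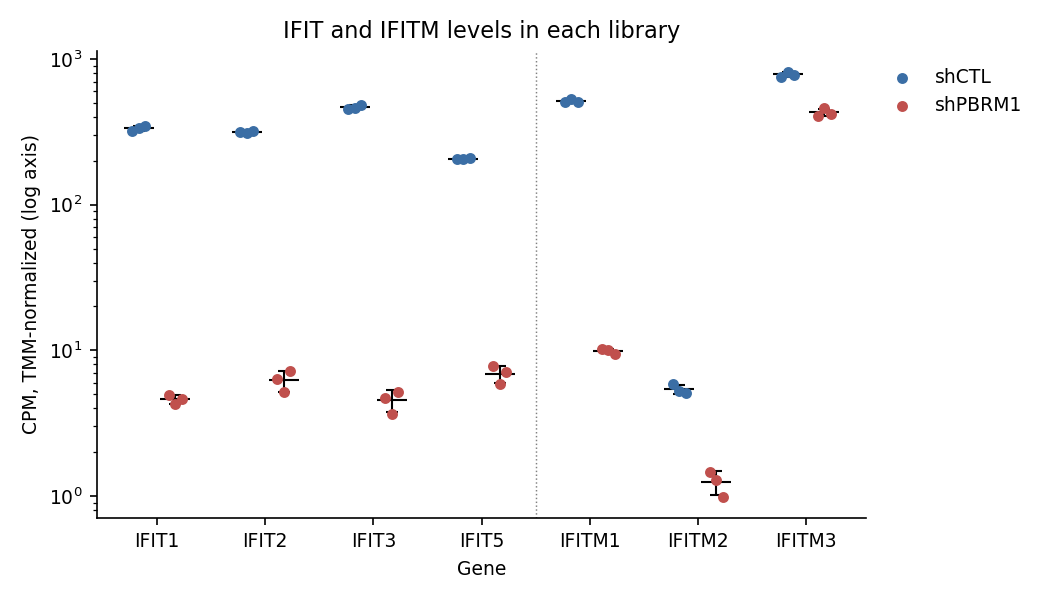
Levels of the 7 members in each of the 6 libraries, in TMM-normalized CPM on a log axis. Points are libraries, horizontal marks are group means and error bars are SD (n = 3); the 4 IFIT genes and IFITM1 lie above 200 CPM in shCTL and at or below 10.2 CPM in shPBRM1, whereas IFITM3 stays at or above 410.0 CPM.

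Summed over the family, IFIT levels were 1303, 1310.2 and 1358 CPM in shCTL and 23.7, 18.9 and 24.1 CPM in shPBRM1, which leaves 1.68%. The IFITM sum does not change with reads that members exchange among themselves. It would change with shared reads that were dropped or counted more than once, and their handling is not given. The IFITM sum was 1271, 1352 and 1297 CPM in shCTL and 422, 473 and 433 CPM in shPBRM1, which leaves 33.9%. The families thus had like sums in shCTL and unlike sums in shPBRM1 cells. Nearly the whole of the IFITM sum in shPBRM1 was IFITM3, at 97.5% ± 0.209 (SD, n = 3) of the counts of the family, against 60.2% ± 0.308 in shCTL. IFITM1 went from 39.4% ± 0.267 to 2.24% ± 0.160 of the counts. Within the IFIT family, the share of IFIT5 went from 15.6% ± 0.297 to 31.0% ± 1.64 and that of IFIT3 from 35.3% ± 0.287 to 20.3% ± 1.15 (SD, n = 3).

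**Figure D3:**
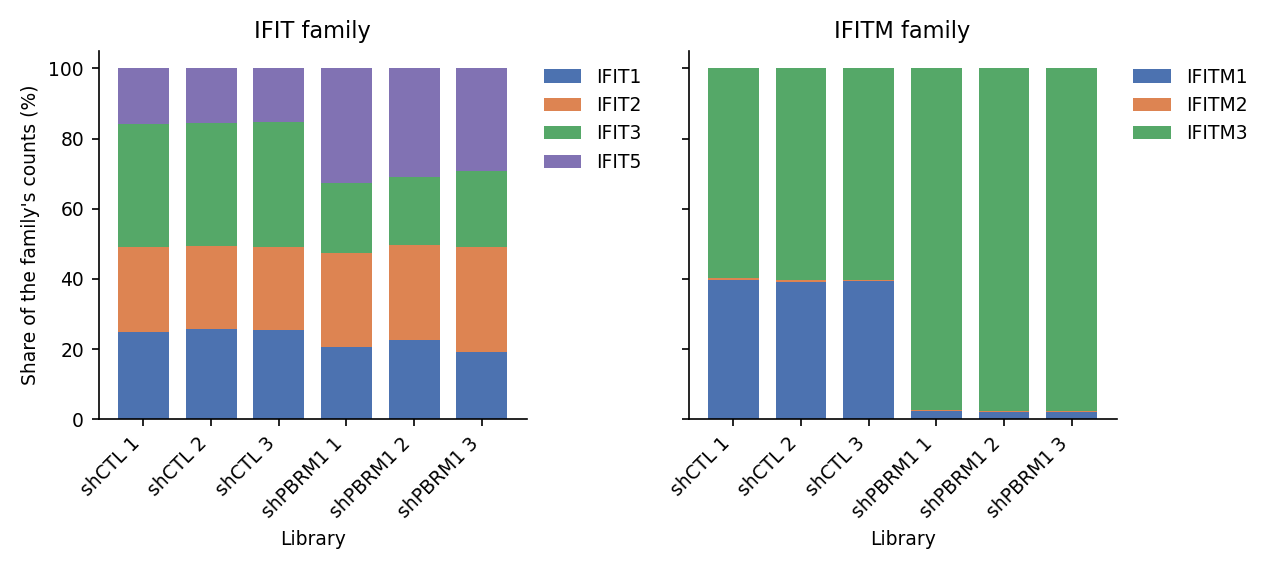
Share of each member in the counts of its family, in percent, for each of the 6 libraries, with the IFIT family on the left and the IFITM family on the right. The counts are not scaled to transcript length; IFITM3 goes from 60.2% to 97.5% on average, whereas the IFIT family stays spread over 4 genes.

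Levels of different genes were compared per length, as CPM per kilobase of the principal transcript, which is between 808 bases (IFITM3) and 4015 bases (IFIT5) long. In shCTL the order on this scale was IFITM3 (973 ± 35.6; SD, n = 3), IFITM1 (602 ± 15.8), IFIT3 (187 ± 5.72), IFIT1 (178 ± 6.50), IFIT2 (85.1 ± 1.24), IFIT5 (51.5 ± 0.464) and IFITM2 (6.06 ± 0.450). The libraries of IFIT3 and IFIT1 overlapped in this order, and no other neighbours did. In shPBRM1 the order was IFITM3 (534 ± 33.2), IFITM1 (11.6 ± 0.421), IFIT1 (2.45 ± 0.173), IFIT3 (1.81 ± 0.311), IFIT5 (1.72 ± 0.240), IFIT2 (1.68 ± 0.274) and IFITM2 (1.39 ± 0.262). The last 4 of these genes overlapped with their neighbours in the order, and the first 3 stood apart. In shPBRM1 cells the 4 IFIT transcripts therefore lay within a narrow range per length, between 1.39 and 2.61 in single libraries.

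Differences between members were tested on the log2 ratio of their counts within each library, which does not depend on the scaling between libraries. In 20 of the 21 pairs of members, the ratios of the 3 shPBRM1 libraries did not overlap those of the 3 shCTL libraries. For single tested genes, every shPBRM1 library lay below every shCTL library in 35.0% and above in 33.3%. The share among pairs of other genes was not computed, so the count of pairs has no background to be read against. Each of these 20 pairs had p = 0.1 in the exact two-sided permutation test, the smallest p that 3 libraries against 3 allow, and 0.105 after Benjamini-Hochberg adjustment over the 21 pairs, so that no pair could pass 0.05. The log2 ratio of IFITM1 to IFITM3 was -0.59, -0.62 and -0.62 in shCTL and -5.33, -5.53 and -5.48 in shPBRM1, a difference of -4.83 (SE 0.061). The ratio of IFIT3 to IFIT5 went from 1.14, 1.17 and 1.21 to -0.72, -0.67 and -0.45, a difference of -1.79 (SE 0.087). The exception was IFIT2 against IFITM1, from different chromosomes, with -0.68, -0.77 and -0.67 in shCTL and -0.68, -0.96 and -0.41 in shPBRM1. Their difference of 0.024 (SE 0.16, exact permutation p = 1) was within the spread between replicates.

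The other 8 rows whose symbols start with IFIT had few reads. IFIT1B, a paralog between IFIT3 and IFIT1, had 17, 33 and 28 counts in shCTL and none in any shPBRM1 library, which is at least 7.31-fold lower when the floor of detection is set at 3 counts per library. Its shCTL counts were 0.141%, 0.202% and 0.160% of those of IFIT1, with which it shares 2.08% of the IFIT1 windows of 50 bases, and a part of shared reads in its counts was not tested. IFIT1P1 had at most 14 counts in any library, IFITM10 at most 11, IFITM9P at most 4, and IFITM5 and IFIT6P at most 1. IFITM4P and IFITM8P had none. These 7 rows did not pass the filter on low counts and were not tested.

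Among genes of IFN signaling, the factors STAT2, IRF9, IRF1 and IRF7 were called lower in shPBRM1 cells, and no receptor chain was. Whether these decreases came before, after or beside those of the IFIT and IFITM genes was not tested. Of 17 genes of IFN signaling, 16 were tested, 6 were called lower and none was called higher, beside 9.68% and 2.87% of all tested genes. With no fold change minimum, 10 were lower and 4 were higher, beside 33.2% and 31.5% of all tested genes. Their median log2 fold change was -0.42. STAT2 fell by 2.36 and IRF9, its DNA-binding partner, by 1.88 on the log2 scale. IRF1 fell by 1.60 on the log2 scale. IRF7, which amplifies type I IFN production, fell by 3.19 on the log2 scale. The other called genes were ISG15, a ubiquitin-like modifier (log2 fold change -4.46), and USP18, which removes ISG15 and restrains the type I IFN receptor (-5.37). The receptor chains IFNAR1 (0.43), IFNAR2 (0.69), IFNGR2 (0.38) and IL10RB (0.51) had positive log2 fold changes under the fold minimum. IFNGR1 (-0.025) did not pass the adjusted p. JAK1 (-0.29), JAK2 (-0.55), TYK2 (-0.21) and the factor IRF2 (-0.65) had negative values under the fold minimum. IRF3, which is activated by phosphorylation, had a log2 fold change of 0.071 (edgeR quasi-likelihood adjusted p = 0.233). IFNLR1 had at most 4 counts and was not tested.

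**Figure D4:**
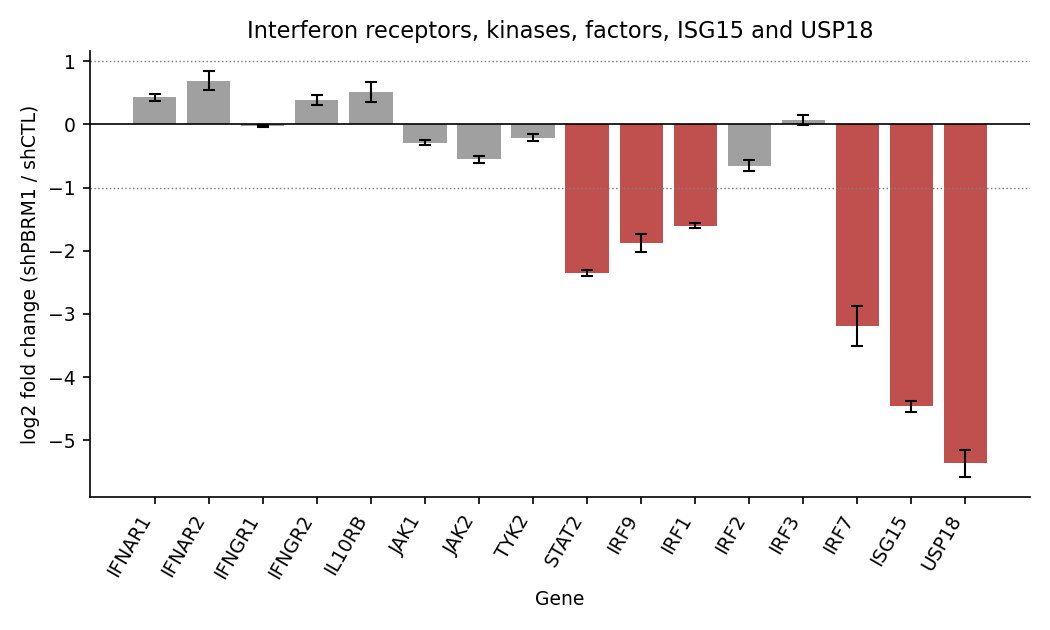
Log2 fold changes (shPBRM1 over shCTL) of the 16 tested IFN signaling genes, with standard errors from the spread between replicates (n = 3 in each group). Red bars were called lower, gray bars were not called, and dotted lines mark a fold change of 2; the receptor chains and kinases lie within the lines, and STAT2, IRF9, IRF1, IRF7, ISG15 and USP18 lie below.

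The genes beside the clusters were examined for changes of their own. Whether their position had a part in these changes was not tested. Of the 5 protein-coding genes on each side of the IFIT cluster, 9 were tested, 4 were called lower and 1 was called higher, beside 9.68% and 2.87% of all tested genes. The 4 lower genes all lie on the side of IFIT2. They were STAMBPL1, a deubiquitinase (log2 fold change -1.34), ACTA2, smooth muscle actin (-3.00), the death receptor FAS (-1.98) and CH25H, which makes 25-hydroxycholesterol. CH25H had 13, 14 and 36 counts in shCTL and none in shPBRM1, at least 5.84-fold lower by the floor of 3 counts. CH25H passed the filter on low counts through its shCTL libraries alone, so it could only be called lower. It is nevertheless part of the 4 lower genes and of the 9 tested genes. LIPA, the lysosomal lipase gene, overlaps IFIT2, IFIT3 and IFIT1 on the other strand. It had 52.4% of its control level left (log2 fold change -0.93, edgeR quasi-likelihood adjusted p = 1.83e-16). On the side of IFIT5, PANK1 (-0.093) and RPP30 (0.11) did not pass the adjusted p, KIF20B (0.88) did so under the fold minimum, and HTR7 rose by a log2 fold change of 1.26 at no more than 72 counts per library. HTR7 was not called by edgeR's test against a fold change of 2 or with a minimum mean of 50 counts.

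Around the IFITM cluster, 8 of 10 neighbours were tested and 1, PGGHG, was called lower, with a log2 fold change of -1.47 (SE 0.32). A count of 1 in 8 is near the 9.68% of all tested genes that were called lower. These 8 genes had a median of 0.16 on the log2 scale. PSMD13, a proteasome subunit, had a log2 fold change of 0.56 and B4GALNT4, next to IFITM3, of -0.33. The remaining 5 tested genes were between 0.054 (SIGIRR) and 0.46 (PKP3).

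**Figure D5:**
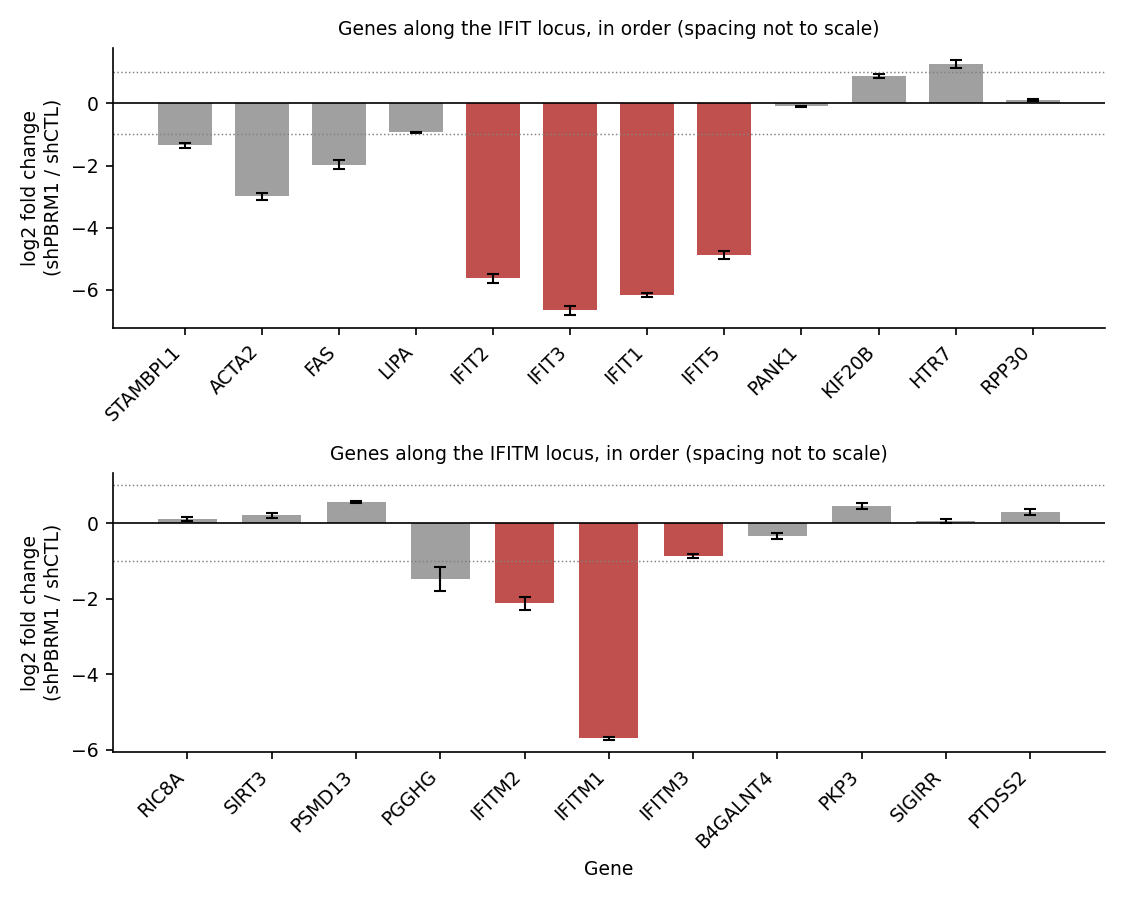
Log2 fold changes (shPBRM1 over shCTL) of the tested genes along the IFIT locus (top) and the IFITM locus (bottom), in chromosomal order and not to scale, with standard errors between replicates (n = 3 in each group). Members are red and neighbours gray, dotted lines mark a fold change of 2, and IFIT1B and CH25H are left out because they had no counts in shPBRM1; the 4 IFIT bars lie between -6.66 and -4.88, and IFITM3 at -0.87 lies beside IFITM1 at -5.70.

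Among 9 genes that act with the families, 1 was called, a share near the 12.6% of all tested genes called in either direction. Of 4 enzymes of the mRNA cap that IFIT proteins read, CMTR1, which adds the first 2′-O-methyl group, was called lower, with a log2 fold change of -1.14 (SE 0.051, edgeR quasi-likelihood adjusted p = 6.47e-17). RNMT (-0.097), CMTR2 (-0.34) and PCIF1 (0.015) were not called. None of 5 genes whose products modify or bind IFITM proteins was called. Among them were SETD7, a methyltransferase for IFITM3, with a log2 fold change of -0.98, and ZDHHC20, which palmitoylates IFITM3, with 0.87. The ubiquitin ligase NEDD4 (0.28), the cofactor ZMPSTE24 (0.43) and VAPA (0.0076) lay closer to no change.

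The tested genes with the most similar pattern were sought by the root mean square distance of log2 CPM, centred on the shCTL mean, over the 6 libraries. The nearest to the mean profile of the IFIT genes, among 5617 genes with a mean log2 CPM of at least 5, were IFI6 (distance 0.15), IFITM1 (0.17) and GBP1 (0.43). For the mean profile of the IFITM genes, which no single member follows, they included SAMHD1 (0.10) and HELZ2 (0.10). With 2 groups, this likeness is mainly one of fold change.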

How the data were processed

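RNA-seq counts of 3 shCTL and 3 shPBRM1 libraries were used, grouped by sample title. The authors deposited raw read counts per gene symbol, without normalization. The submitters' processing notes name CASAVA 1.8.2, STAR 2.7.9a, featureCounts, DESeq2 1.24.0 and GRCh38.p7, and the libraries were TruSeq Stranded mRNA. The annotation and the handling of strand and of multiply mapped reads are not given in the sources used here. The 3 control columns carry the cell line and a replicate number without the word control, and were matched to the control titles by these. Of the rows, 14 carry dates in place of symbols and were kept unnamed.

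The tests used edgeR 4.0.16 under R 4.3.3 (filterByExpr, TMM, quasi-likelihood F-test, Benjamini-Hochberg over 15450 genes). Calls needed an adjusted p under 0.05 and more than a 2-fold change, the limits of the study. CPM use all counts and the TMM factors. Standard errors were taken on log2 CPM, prior count 2. The floor of detection was 3 counts, or 0.0470 to 0.0803 CPM, which covers counting error only. DESeq2 1.42.0 and the other alternatives are listed in the closing section.

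The members and lists were chosen with earlier results of these data known. The genes named are the members, other IFIT rows, PBRM1, the signaling, cap, IFITM regulator and neighbour lists, markers, and the nearest patterns among the first 3 for each family. An item of the signaling list and of these patterns is not reported here. Libraries of 1 group differed by more than sampling noise (chi-square per degree of freedom of 4.92 to 24.9). Libraries with the same number in their titles deviated together, with correlations of 0.734, 0.593 and 0.419 over 5621 genes, against -0.671 to 0.465 for libraries with different numbers, the highest being shCTL replicate 2 with shPBRM1 replicate 3. As each same-number pair was above 0.1, the replicate number was fitted as a block in an alternative.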

Additional observations from a re-analysis of the deposited data

How the results depend on the processing

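Alternatives for the scaling were DESeq2, library size only and RLE factors. The filter was replaced by a minimum mean of 50 counts or dropped. The replicate block was fitted, libraries were left out 1 at a time, and calls were also made without a fold minimum or with glmTreat. For log2 CPM, the prior count was also set to 0.5. All 4 IFIT genes were called lower under each of the 14 alternatives run for that count. The IFITM count was 2, except 3 with no fold change minimum and 1 with IFITM2 and IFITM3 summed, which was added after seeing the data. With each library left out, the counts of called IFIT and IFITM genes stayed at 4 and 2. IFITM3 stayed under the fold change minimum in all 13 alternatives, with log2 fold changes between -0.92 (library size only) and -0.83. Library size only moved the median of all tested genes from -0.0080 to -0.056. The fit with the replicate block gave log2 fold changes of -6.17 for IFIT1, -5.64 for IFIT2, -6.66 for IFIT3, -4.89 for IFIT5, -5.70 for IFITM1, -2.14 for IFITM2, -0.87 for IFITM3 and -1.92 for PBRM1, and the block changed no call of the members or lists. With no fold change minimum, 14 signaling genes, 13 neighbours and 7 cap and IFITM regulator genes were called, in place of 6, 6 and 1. Library size only gave 2 of the last list, SETD7 being added. With a mean of at least 50 counts, 4 neighbours were called, because CH25H and HTR7 were no longer tested. IFITM2 rests on 50 to 258 counts per library, the fewest of the 7 members.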

Other observations

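Beyond the families, tested genes were grouped by the number of ISRE core matches in their RefSeq promoter windows, a grouping chosen after the members had been examined and given as a description. Of the 15450 tested genes, 11173 had a window by symbol, and 9.26% of these were called lower. Among the 10724 genes with no match, 927 (8.64%) were called lower, with a median log2 fold change of -0.012. Among the 408 genes with 1 match in a window, 86 (21.1%) were called lower, with a median of -0.15. With the 5 members left out, 36 genes had 2 or more matches in a window, of which 18 were called lower and 1 was called higher, with a median of -1.03. IFITM3, with 2 matches and a log2 fold change of -0.87, lay near this median, and IFIT1, IFIT3, IFIT5 and IFITM1 lay far below it.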
